A study of Homo sapiens with 4 samples.

Results

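The IL10 cytokine cluster is a group of 4 genes of the IL-10 family, *IL10*, *IL19*, *IL20* and *IL24*, that lie side by side on chromosome 1 (chr1:206940947-207077484, 137 kb, hg19). It was examined for binding of SMAR1, a nuclear matrix protein encoded by *BANP* that recruits repressor complexes to DNA. The genes were listed by name, and every peak centred in the cluster or within 100 kb of it was taken, a window of 337 kb. This gave 3 of the 13926 deposited peaks: 1 of 5709 in HCT116 p53+/+ and 2 of 8217 in HCT116 p53-/-. The cluster was chosen by the score of its strongest peak, which was known from earlier results of these data to be near the top of the HCT116 p53+/+ list, so scores, ranks and positions are given as a description with no test.

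The study sequenced chromatin immunoprecipitated with an anti-SMAR1 antibody (ChIP-seq) to compare where SMAR1 sits in cells with and without p53. HCT116 cells come from a human colorectal carcinoma, and untreated cells of the line with intact p53 (p53+/+) and of its p53-null counterpart (p53-/-) were used. From each line 1 anti-SMAR1 library was analysed, so no difference between the lines has a replicate check and anything that set the libraries apart cannot be told apart from p53 status. The IgG control libraries were not analysed here, and the peak lists hold no reads, so the depth behind each peak is not known from them. The score of a peak comes from MACS, the peak caller, as a log10 p-value multiplied by -10. It starts at 50 and is not scaled for depth. Ranks within a list were therefore used to place a peak. A gene with no peak is one where none was called, which is not the same as no binding.

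IL-10, the founding member of the family, is a secreted anti-inflammatory cytokine that signals through IL10RA and IL10RB to JAK1, TYK2 and STAT3 and restrains cytokine production by macrophages and other immune cells. Loss of IL-10 or of its receptor is known for severe inflammation of the colon. IL-19, IL-20 and IL-24 form the IL-20 subfamily, which acts mainly on epithelial cells through receptors built from IL20RA, IL20RB and IL22RA1. The lists give positions of binding and no expression, so whether these genes are transcribed in HCT116 cells was not examined.

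The strongest peak of the window stood over the transcription start site (TSS) of *IL10*. Short stretches are shown of its ends and of the sequence elements to which its values refer, each from hg19 and written 5′ to 3′. Those on the minus strand read in the direction of *IL10* transcription. In capitals are, in order, the TATA box hexamer TATAAA, the lone CGCG, the match to the p53 consensus, the longest T(C/G) run and the hexamer AGATCT at the edge. The distal end has no capitals.
distal end of the IL10 peak (chr1:206946782-206946843, minus strand, intronic in IL10-205 to IL10-207): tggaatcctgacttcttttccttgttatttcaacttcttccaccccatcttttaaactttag
TATA segment (chr1:206945852-206945881, minus strand): ctgagcttacaaTATAAAagggggacagag
CGCG (chr1:206946151-206946180, minus strand): tgacctaggaacaCGCGaatgagaacccac
p53 consensus match (chr1:206945821-206945830 with 10 bases on each side, plus strand): ggttttgcaaGAGCAAGCCCctgatgtgta
longest T(C/G) run (chr1:206945840-206945869, plus strand): agaccttcaccTCTCTGTCccccttttata
proximal end of the HCT116 p53-/- peak (chr1:206945650-206945679, minus strand): aggcaacctgcctaacatgcttcgAGATCT
The other peak of the window, called in HCT116 p53-/- alone, lay in an intron of *FCMR*, the gene of the Fc receptor for IgM, and is printed whole with its T(C/G) run in capitals.
FCMR peak (chr1:207091995-207092043, plus strand): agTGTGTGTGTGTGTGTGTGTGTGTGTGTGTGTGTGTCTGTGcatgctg

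*IL10* (ENSG00000136634, chr1:206940947-206947886, minus strand) was the member with a peak at a TSS in both cell lines. In HCT116 p53+/+ the peak ran from 206945651 to 206946843, was 1193 bp long and scored 1616, rank 2 of 5709. In HCT116 p53-/- it ran from 206945650 to 206946843, was 1194 bp long and scored 944, rank 77 of 8217. Peaks at or above these scores made up 0.0350% and 0.937% of the respective lists. In both lists the *IL10* peak belonged to a small group of strong peaks, and it stood higher in the HCT116 p53+/+ list. Its score is read here as that of a called peak. Whether its reads came from the cells' own chromatin or from other DNA carrying a copy of this stretch, such as a cloned promoter fragment, was not tested, because the lists hold no reads. The positions of its edges are given below.

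The neighbours in rank were promoter peaks in 3 of 4 cases. In HCT116 p53+/+ the peak above it was at the start of the assembled sequence of chromosome 5 (10000 to 11815, score 1709) and the peak below it was at the promoter of *RBM39*, a splicing factor gene (score 1369, centred 102 bp from a TSS). In HCT116 p53-/- it stood between peaks at *WDR73* (score 948) and *HSBP1* (score 942), centred 17 and 2 bp from a TSS, respectively. Strong peaks were long, with a median of 396 and 541 bp among the 100 strongest, and the *IL10* peak was among the longest of all, at rank 13 by length in HCT116 p53+/+ and rank 4 in HCT116 p53-/-. The median peak was 61 bp in both lists, and 18 and 7 peaks reached 1000 bp. Per base of length the *IL10* peak scored 1.35 and 0.791, which ranked 2050 of 5709 and 6036 of 8217, so its place near the top held for the total score and not for the score per base.

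**Figure D1:**
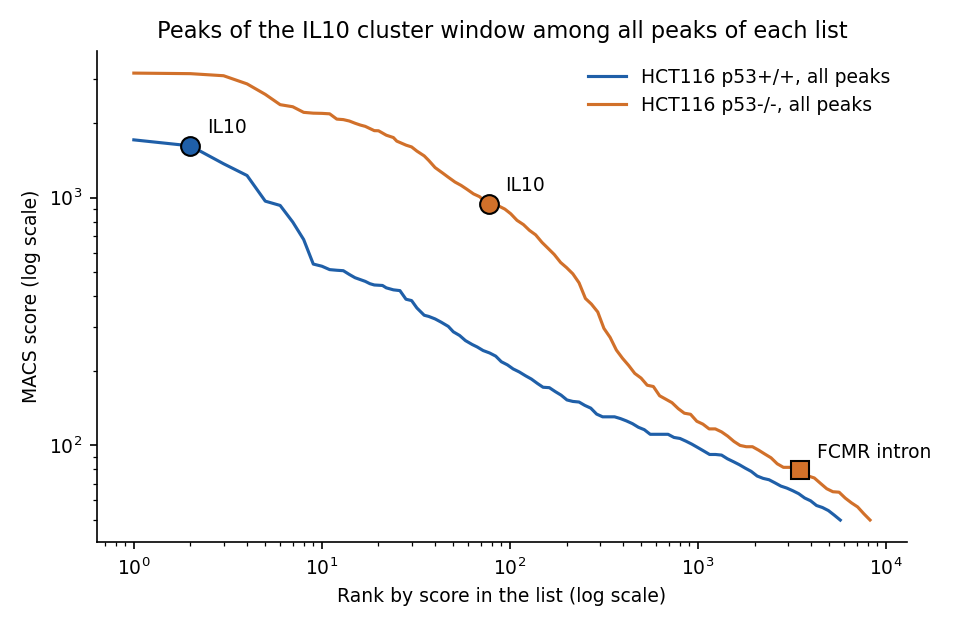
MACS score (y axis, log scale) against rank by score (x axis, log scale) for all peaks of each list (lines) with the peaks of the IL10 cluster window marked. The IL10 peak sits at rank 2 with a score of 1616 in HCT116 p53+/+ and at rank 77 with a score of 944 in HCT116 p53-/-, and the peak in the FCMR intron sits at rank 3505 with a score of 79.6.

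*IL10* has 7 annotated transcripts with 6 TSSs, and the peak covered 1 of these, that of the coding transcript IL10-202 (206945839). Of the HCT116 p53+/+ peak, 1004 bases lay upstream of this TSS and 189 at or downstream of it, with the centre 408 bp upstream. The part downstream covered most but not all of the first exon of IL10-202, with 59 bases of 5′ untranslated region and 130 coding bases. In the longer transcript IL10-206, which starts farther upstream, 1131 bases of the peak lay in an exon, mostly untranslated. The TSS shared by IL10-205 and IL10-207 was 1.64 kb upstream of the peak centre, and the internal TSSs of IL10-203, IL10-201 and IL10-204 were 1.70, 1.71 and 2.32 kb downstream of it in the direction of *IL10* transcription.

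**Figure D2:**
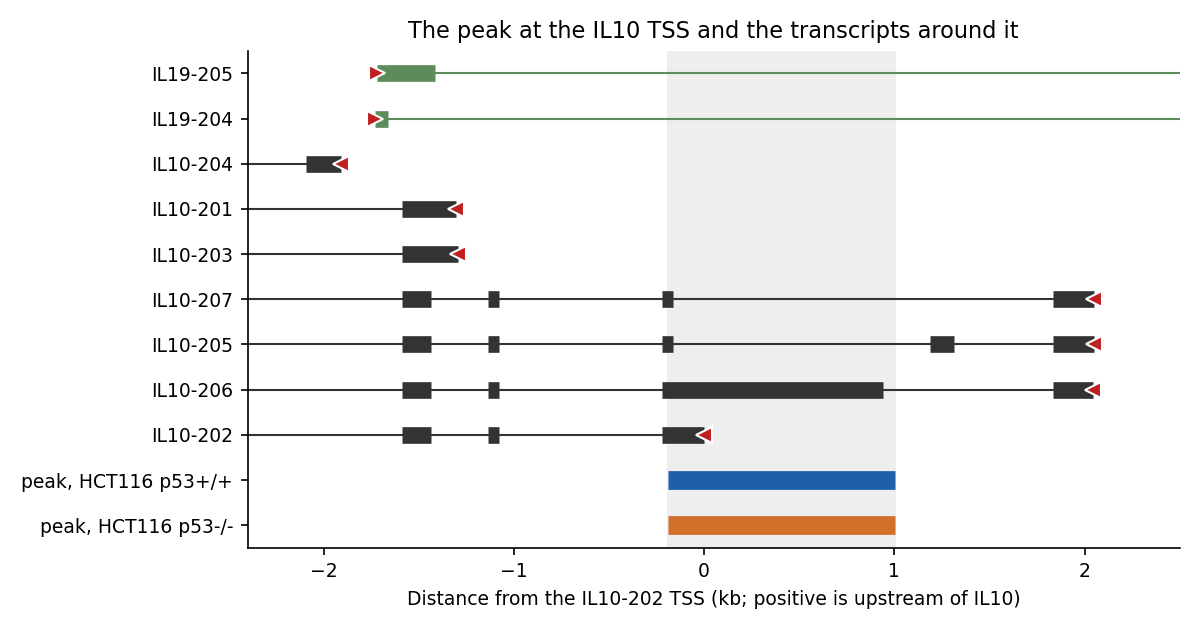
Position of the IL10 peak in both cell lines (blue and orange bars, grey band) against the exons (thick) and introns (thin) of the 7 IL10 transcripts (dark) and 2 IL19 transcripts (green), with TSSs as red arrowheads. The x axis is the distance from the IL10-202 TSS in kb, and both peaks cover that TSS and about 1 kb upstream of it.

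*IL19* (ENSG00000142224, chr1:206944109-207016326, plus strand), a ligand of the IL-20 receptors, is transcribed in the opposite direction and overlaps *IL10*. The same peak lay in the first intron of its long transcripts IL19-204 and IL19-205, 2.14 and 2.13 kb downstream of their TSSs, and covered none of its exons. It lay 56.0 kb upstream of the TSS of IL19-201. No peak was centred within 1 kb of an *IL19* TSS in either list, so the peak was nearer to *IL10* than to *IL19*.

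*IL20* (ENSG00000162891, chr1:207038968-207042568, plus strand) and *IL24* (ENSG00000162892, chr1:207070788-207077484, plus strand), both ligands of the IL-20 receptors, contained no peak in either list. Distances here run from the peak centre to the nearest TSS of the gene. In HCT116 p53+/+ the nearest peak to each was the one at *IL10*, 92.7 kb from a TSS of *IL20* and 125 kb from one of *IL24*. In HCT116 p53-/- it was the *FCMR* peak, 52.9 kb from a TSS of *IL20* and 20.8 kb from one of *IL24*. Of the 4 members, 1 had a peak centred within 1 kb of a TSS in each list, and it was *IL10*. *IL19*, *IL20* and *IL24* had none. Because the cluster was chosen by the HCT116 p53+/+ score of the *IL10* peak, that 1 gene was fixed by the choice and is a description. Among 20163 protein-coding genes the share was 3.21% in HCT116 p53+/+ (exact 95% interval 2.97 to 3.46) and 5.80% in HCT116 p53-/- (5.48 to 6.13). These intervals, like those given below, cover counting error only.

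The *FCMR* peak (207091995 to 207092043) was 49 bp long with a score of 79.6, rank 3505 of 8217. This rank lies 42.7% of the way down the HCT116 p53-/- list, and 10 peaks, itself included, tied at that score. Its centre was 14.5 kb beyond the end of the cluster and 3.19 kb downstream of the nearest *FCMR* TSS. HCT116 p53+/+ had no peak within 132 kb of it. The window overlapped 9 protein-coding genes. *DYRK3* and *MAPKAPK2*, both protein kinase genes, and *PIGR* and *FCAMR*, genes of immunoglobulin receptors, contained no peak in either list.

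**Figure D3:**
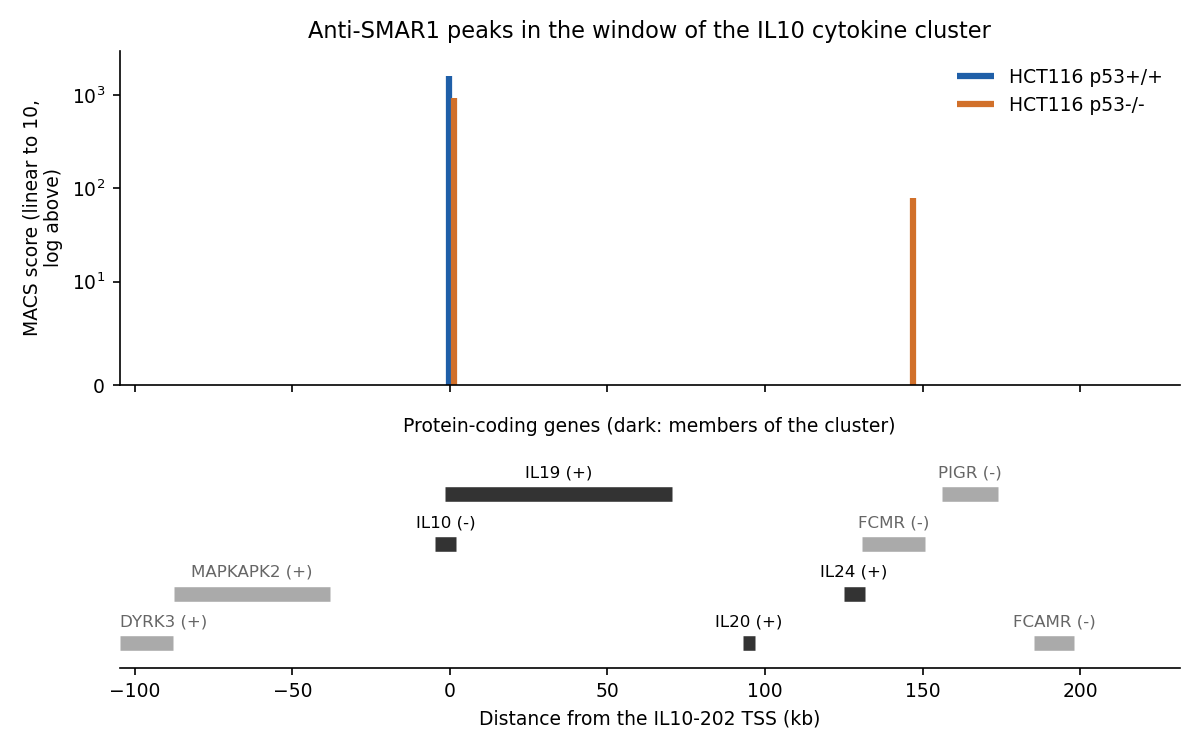
Peaks of the window by MACS score (upper panel, y axis linear to 10 and log above, bars offset sideways for visibility) above the 9 protein-coding genes with their strand (lower panel), against the distance from the IL10-202 TSS in kb. The IL10 peak was called in both lists, the peak in FCMR in HCT116 p53-/- alone, and IL20 and IL24 held none.

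Outside the window, the nearest peaks on the side of *IL24* were at *YOD1*, a deubiquitinase gene, in both lists. A pair of peaks there scored 64.5 and 127 in HCT116 p53+/+ and 275 and 848 in HCT116 p53-/-, at 147 and 149 kb from the cluster, so these stood higher in HCT116 p53-/-, unlike the peak at *IL10*. On the side of *IL10* the nearest peak was 186 kb away near *RASSF5* in HCT116 p53-/- (score 73.9), and 1223 kb away near *NUCKS1* in HCT116 p53+/+ (score 50.5).

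The number of peaks in the window was set beside other genes. The window held 2.97 peaks per Mb in HCT116 p53+/+ and 5.94 in HCT116 p53-/-, beside 1.81 and 2.65 over all assembled chromosomes. In HCT116 p53+/+ the 1 peak counted was the one by whose score the cluster was chosen. In HCT116 p53-/- the peak at the same place was 1 of the 2. The counts are therefore partly fixed by that choice and are a description. When every protein-coding gene was given a window of the same length, 49.6% had at least 1 peak in HCT116 p53+/+ and 29.9% had at least 2 in HCT116 p53-/-, with up to 12 and 8. These shares depended on the setting. With a flank of 200 kb, where the window held 3 and 5 peaks, 12.7% and 5.4% of genes had as many, and among peaks at or above the median score of their list the shares were 30.2% and 10.9%. The counts behind them are 1 to 5 peaks.

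The *IL10* peak was present in both lists. Of all HCT116 p53+/+ peaks, 20.2% (exact 95% interval 19.2 to 21.3) shared at least 1 base with the other list. Of all HCT116 p53-/- peaks, 13.5% (12.8 to 14.2) did. Strong HCT116 p53-/- peaks were shared more often. That list scored 522 at position 200 and 492 at position 216, and 157 of its peaks scoring at least 500 were shared one to one. Being shared was therefore common among peaks as strong as the one at *IL10* in HCT116 p53-/-. The lists held 1035 pairs in which 1 peak met 1 peak, and these were the background for the *IL10* pair. Its score was 1.71 times higher in HCT116 p53+/+ than in HCT116 p53-/-, whereas the median ratio over all pairs was 0.756 and 313 pairs (30.2%) scored higher in HCT116 p53+/+. A ratio at least as high as at *IL10* was found in 46 pairs (4.44%), *IL10* included.

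Of 11 pairs that scored at least 500 in both lists, 1 scored higher in HCT116 p53+/+, the one at *IL10*, and the others had ratios of 0.286 to 0.683. This limit was set after the values were seen. At a limit of 200 in both lists, 5 of 86 pairs scored higher in HCT116 p53+/+, *IL10* included, and 1 other had a ratio at least as high as *IL10*. Because the cluster was chosen by its HCT116 p53+/+ score, a high ratio there is partly fixed by that choice and is a description. The ratio mixes depth with enrichment, and with 1 library per line it has no error. The paper reports more reads, in total and aligned, for the HCT116 p53-/- anti-SMAR1 library than for the HCT116 p53+/+ one. The effect of this on the ratios was not tested.

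**Figure D4:**
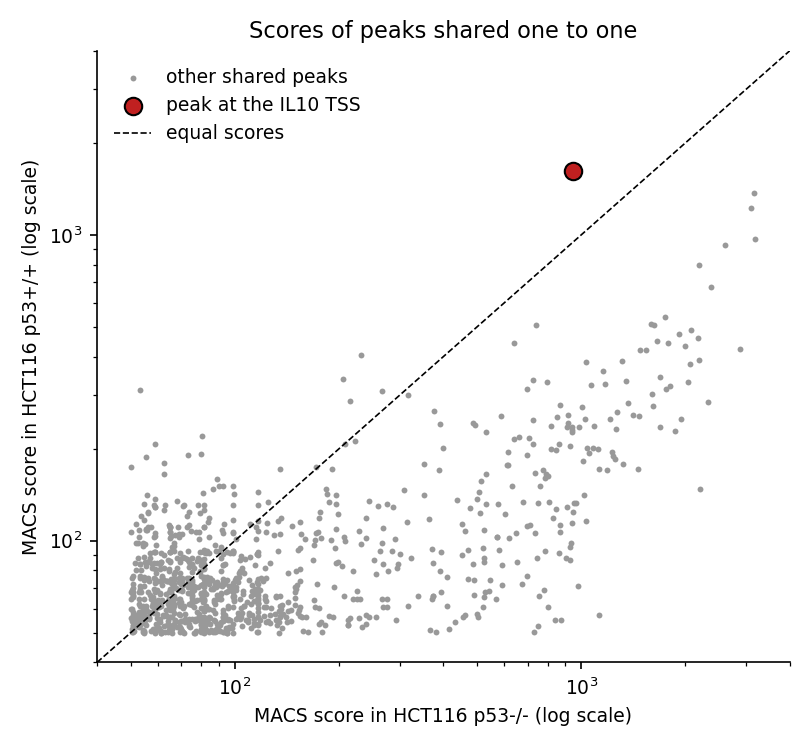
MACS scores of the 1035 pairs of shared peaks in HCT116 p53+/+ (y axis, log scale) and HCT116 p53-/- (x axis, log scale), not scaled for depth, with the line of equal scores dashed. The IL10 pair (red), chosen by its HCT116 p53+/+ score, lies above the line at 1616 and 944, and 313 of the 1035 pairs score higher in HCT116 p53+/+.

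The edges of the *IL10* peak fell at nearly the same bases in both cell lines. The first base differed by 1 bp and the last by 0 bp, leaving 1193 shared bases. Among all pairs, 34 (3.29%) had both edges within 1 bp, and the longest of these besides *IL10* was 296 bp. Of 38 pairs with at least 500 bp in both lists, *IL10* was the 1 with both edges within 1 bp, and 4 had both within 10 bp. The next closest, on chromosome 10 (132158426 to 132158980), differed by 4 bp, and the median of the larger edge difference was 33 bp. The peaks were called on each library separately. The cause of the match was not tested.

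**Figure D5:**
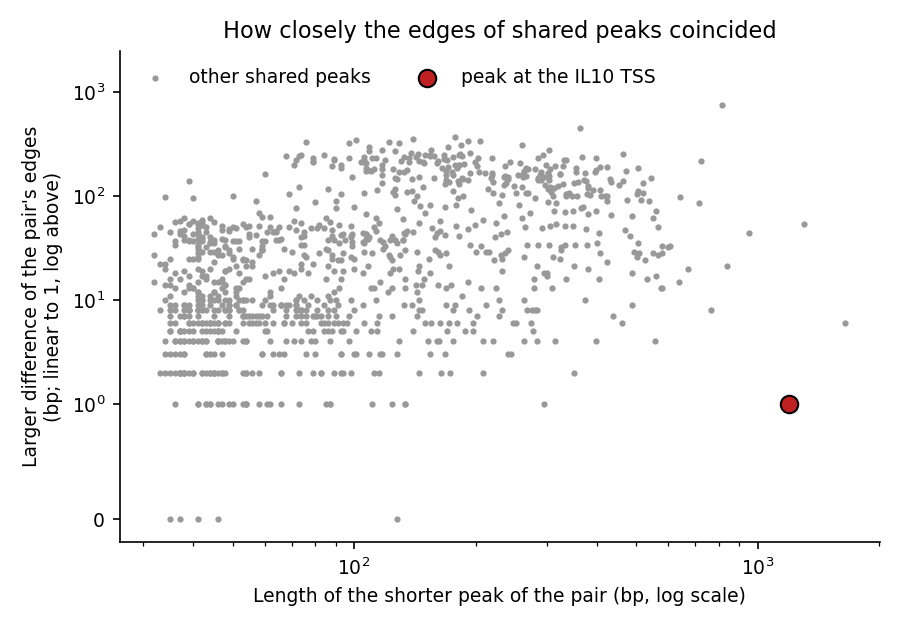
Larger of the start and end differences of each shared pair (y axis, bp, linear to 1 and log above) against the length of its shorter peak (x axis, bp, log scale) for 1035 pairs. The IL10 pair (red) is 1193 bp long with a difference of 1 bp, whereas the 38 pairs of at least 500 bp had a median difference of 33 bp.

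The base composition of the *IL10* peak differed from that of most strong peaks. Its GC content was 46.5%, and it held 10 CpG dinucleotides, a ratio of observed to expected CpG of 0.155, as at promoters outside CpG islands. The 100 strongest peaks of each list had complete sequence in 93 and 99 cases. Their median GC content was 58.7% in HCT116 p53+/+ and 60.6% in HCT116 p53-/-, their median CpG ratio was 0.862 and 0.837, and 72 and 98 were centred within 1 kb of a TSS. In HCT116 p53-/- the *IL10* peak had the lowest CpG ratio and the lowest GC content of the 99. In HCT116 p53+/+, 10 of 93 had a CpG ratio at or below that of *IL10*, itself included. Every stretch of 31 bases in the peak occurred once in the hg19 assembly (1164 of 1164), so none had a second exact copy there. Repeats whose copies differ in sequence were not examined.

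The T(C/G) dinucleotide repeat, T followed by C or G in uninterrupted runs, is the sequence that the study examined as a binding site of SMAR1. A run of at least 12 bp on either strand was present in 60.1% of HCT116 p53+/+ peaks with complete sequence (exact 95% interval 58.8 to 61.4) and in 76.0% of HCT116 p53-/- peaks (75.0 to 76.9). The longest run in the *IL10* peak was 8 bp, just upstream of the TSS as printed above. Among the strongest peaks with complete sequence, 14 of 93 in HCT116 p53+/+ held such a run. In HCT116 p53-/- 0 of 99 did (approximate upper limit 3.03%, not an exact interval). The *FCMR* peak was of the other kind, as its run of 40 bp took up 81.6% of its length. Its sequence was repetitive, and of its 19 stretches of 31 bases 2 occurred once in the assembly, while the middle one had 1721 copies.

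The octamer CTCGCGAG, a palindrome read alike on both strands, is the core of the element to which BANP is known to bind at CpG island promoters. It was searched for after the values were seen. It was present in 2.27% of HCT116 p53+/+ peaks (exact 95% interval 1.90 to 2.70) and 2.62% of HCT116 p53-/- peaks (2.28 to 2.99), but in 42 of 93 and 52 of 99 of the strongest ones. The *IL10* peak had none, and its 1 CGCG lay in other surroundings, as printed above. With neither the octamer nor a T(C/G) run it was 1 of 37 such peaks among the 93 and 1 of 47 among the 99. The *FCMR* peak had no CpG at all.

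The p53 consensus of 10 bases was searched for in each peak with 50 bp on each side, since the study asked whether p53 and SMAR1 share sites. The *IL10* peak held 1 match (206945821 to 206945830), 9 to 18 bp downstream of the IL10-202 TSS in its 5′ untranslated region. A match was found in 2.61% of HCT116 p53+/+ peaks (exact 95% interval 2.21 to 3.06) and 3.17% of HCT116 p53-/- peaks (2.80 to 3.57). Long peaks have more room for one, and among peaks of at least 500 bp the match was present in 3 of 61 and 27 of 175. The *FCMR* peak had none within 50 bp. A match names a letter pattern and not a bound site.

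The promoters of the 4 members were compared in RefSeq windows of 300 bases, from 250 before to 50 after a TSS (GRCh38.p14 table). All 8 windows for these genes were found unchanged in hg19. The window of the *IL10* TSS under the peak held TATAAA, the TATA box hexamer, which 11.5% of 35116 windows held on either strand. It lacked GGGCGG, the Sp1 box hexamer found in 45.0% of windows. The windows of the internal *IL10* TSSs and of the upstream *IL19* TSS held GGGCGG and no TATAAA. The *IL19* window (206943868 to 206944167) overlapped 1 of these *IL10* windows (206943899 to 206944198) over most of its length, so these are not separate sequences. Of the *IL20* windows 1 held TATAAA, a downstream *IL19* window held TTCNNNGAA, the STAT motif (7.66% of windows), and the *IL24* window held none of these. None of the 8 held CTCGCGAG (1.02% of windows) or a T(C/G) run of 12 bp (2.18%).

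Beyond the cluster, 23 genes of the IL-10 pathway were followed by role: 9 ligands, 7 receptor genes and 7 signalling genes. *IL10* was the 1 gene with a peak within 1 kb of a TSS in each list. Within 10 kb there were 3 of 23 in each list, beside 8.91% and 13.4% of all protein-coding genes. This is near the share over all genes. *IL10* and *IL19* counted in both through the same peak, the one by whose score the cluster was chosen. The other was *IL20RB*, a receptor chain of the IL-20 subfamily, in HCT116 p53+/+, with a peak 4.14 kb downstream of a TSS (score 66.4, rank 3090). In HCT116 p53-/- it was *STAT3*, the transcription factor downstream of the IL-10 receptor, with a peak 6.41 kb downstream of a TSS of one of its transcripts and outside the gene (score 54.8, rank 7256). The *IL20RB* and *STAT3* peaks scored below their list medians of 67.9 and 73.9. The receptor of IL-10 itself had none near, as the nearest peaks to *IL10RA* were 353 and 148 kb away and those to *IL10RB* were 129 and 81.2 kb away.

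In the windows of 5 other cytokine gene clusters, the highest-scoring peak had rank 1380 in HCT116 p53+/+ and rank 3396 in HCT116 p53-/-, both near *IL22*. The windows of the Th2 cluster (*IL3* to *IL4*, chromosome 5) held 1 and 3 peaks in HCT116 p53+/+ and HCT116 p53-/-, with top scores of 57.9 and 73.2. The window with *IFNG*, *IL26* and *IL22* held 1 in each list, with scores of 89.2 and 80.0, and these peaks did not overlap. The interferon lambda genes had 2 in each list, with top scores of 60.4 and 65.1. The IL-1 cluster and the CXCL chemokine cluster had none in HCT116 p53+/+ and 1 each in HCT116 p53-/-, scoring 66.5 and 74.3. None of these peaks was centred within 1 kb of a TSS of a cluster gene, the nearest being 2.13 kb away in the IL-1 cluster. Over all protein-coding genes that share was 3.21% in HCT116 p53+/+ and 5.80% in HCT116 p53-/-. With so few cluster genes, a count of none is near these shares. The windows also differed in length, from 255 to 822 kb beside 337 kb for the IL10 cluster, which was chosen by score.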

How the data were processed

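Chromatin from 2 HCT116 lines was sequenced single-end. The authors trimmed reads with cutadapt 1.2.1, aligned them to hg19 with Bowtie2 2.2.1, called peaks with MACS 1.4.2 and filtered them on fold enrichment, a step that the lists do not allow to be repeated. Whether IgG served as the control for MACS is not given in the sources used here. The deposited lists hold positions and, in column 5, the score that the authors took from MACS. The 2 IgG libraries were not analysed here.

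Peaks were read as 1-based intervals and set against GRCh37 and GENCODE release 44 mapped to it. Peaks without complete sequence on an assembled chromosome (117 and 50) were left out of sequence scans. Genes, regions and lists were chosen with earlier results of these data known. Named were the cluster genes, protein-coding genes of the window, pathway genes with a peak within 10 kb, the top peak of each other cytokine cluster, and neighbouring peaks by rank and position. No test was run, as each line had 1 library. Functions were tested on simulated data. Python 3.11.15, pandas 2.3.3, pysam 0.24.0 and matplotlib 3.10.9 were used.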

Additional observations from a re-analysis of the deposited data

How the results depend on the processing

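No paired analysis was possible because the result comes from no test and each line had 1 library. Of 51 alternatives, 25 left a value within 1.5 times. The peak at *IL10* stayed at rank 2 and moved from 77 to 76 on assembled chromosomes only, but ranked 2050 and 6036 by score per base, and measured from its nearest edge it was 0 bp from the TSS. With a flank of 200 kb the window held 3 and 5 peaks in HCT116 p53+/+ and HCT116 p53-/-, and with no flank 1 in HCT116 p53-/-. Genes with as many peaks in such a window then made up 12.7% and 5.4% with 200 kb, 18.8% in HCT116 p53-/- with 50 kb, and 30.2% and 10.9% among peaks at or above the median score. Within 5 kb of a TSS, 6.11% and 9.7% of protein-coding genes had a peak. Of the pathway genes, 1 (4.35%) in each list had a peak within 1 kb, beside 3.21% and 5.80% of all protein-coding genes. Within 100 kb 13 (56.5%) had one in each list, beside 38.5% and 51.6% of all protein-coding genes. Neighbouring genes shared peaks in this count. In HCT116 p53+/+, *IL10*, *IL19* and *IL20* counted through the peak at *IL10*, and *IL22* and *IL26* through 1 peak. There *IFNL1*, *IFNL2* and *IFNL3* had the same nearest peak, as did *IL20RA* and *IL22RA2*. In HCT116 p53-/- the nearest peak was the same for *IL10* and *IL19*, for *IL20* and *IL24*, for *IL22* and *IL26*, and for the interferon lambda genes. The genes are therefore not independent in either list. With runs of 6 bp, 1 and 2 window peaks had a T(C/G) run, and with 200 bp on each side 2 in HCT116 p53-/- had a p53 match. The other cytokine clusters held 1 and 3 peaks with no flank, and 1 and 2 at or above the median. Each of these alternatives changes what is counted or measured, and no other cause was tested. The limit of 200 for pairs, chosen after seeing the data, gave 5 pairs in place of 1. The overlap of the *IL10* peak between the lists held under every overlap rule tried. Without the reads of each peak, the precision of a score is not known.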

Other observations

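The HCT116 p53-/- peak at *IL10* began exactly with the 6 bases AGATCT, the recognition sequence of the restriction enzyme BglII, and the HCT116 p53+/+ peak began 1 base inside it. The hexamer was searched for after the values were seen. It stood exactly at an edge of 1 of 5592 peaks with complete sequence (0.0179%) in HCT116 p53+/+ and of 3 of 8167 (0.0367%) in HCT116 p53-/-, the one at *IL10* included. Whether this edge came from cloned DNA was not tested.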
